A study of Homo sapiens with 2 samples.

Results

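The miR-148 and miR-152 family is a set of microRNAs (miRNAs), short RNAs of the cell that pair with messenger RNAs and lower their output, made from 3 human hairpin genes, MIR148A, MIR148B and MIR152. The family was taken by name, as every entry of the deposited tables whose name begins with hsa-miR-148a, hsa-miR-148b or hsa-miR-152, with or without an arm ending. This gave 5 of the 425 miRNAs listed in either library, namely hsa-miR-148a-3p, hsa-miR-148a-5p, hsa-miR-148b-3p, hsa-miR-148b-5p and hsa-miR-152. All 5 were listed in both libraries. The name hsa-miR-152 carries no arm in the tables, although the reference holds a product of each arm, so its values are given under the name as listed.

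Small RNA of MDA-MB-231-IV2-1 cells, a subline of the triple-negative human breast cancer line MDA-MB-231 chosen for its metastatic growth, was sequenced in 2 libraries. One library came from cells transfected for 48 h with the scrambled control siRNA (control), and the other from cells transfected for the same time with a pool of siRNAs against the long non-coding RNA LOC550643 (knockdown). Titles give MDA-MB-231-IV2 for both, the methods of the study name IV2-1, and the cell line label gives the parental MDA-MB-231. The comparison asks which miRNAs differ when LOC550643 is depleted. There is 1 library per condition, so no difference below has a replicate check, no p-value is given, and an effect of the knockdown cannot be told apart from a difference between cultures or preparations. LOC550643 itself is not a miRNA, and its level in these libraries was not analysed here. Levels are given as RPM, the reads of a miRNA scaled to a library total of 1000000 miRNA reads. One read was worth 5.29 RPM in control cells and 2.03 RPM in knockdown cells, which corresponds to about 189034 and 491617 reads on miRNAs. The intervals are 95% intervals of these estimated reads, cover counting error only, and are narrower in the more deeply sequenced knockdown library. As a check of the cell line, the epithelial miRNAs of a list of 6 (the miR-200 group and miR-205-5p) summed to 10.6 and 8.14 RPM, and 4 of the 6 were listed in neither library, whereas miR-21-5p, miR-100-5p, miR-221-3p and miR-222-3p were all abundant. Of 11 miRNAs that mark blood, liver, muscle, neural or endocrine cells, 9 were listed in neither library, and the remaining 2 together had 169 and 126 RPM, nearly all of it miR-9-5p. Markers outside this list were not examined, so the check does not show that the libraries lack miRNAs of other tissues.

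A miRNA hairpin is cut by the enzymes Drosha and Dicer into a short duplex with a 5p and a 3p arm, of which usually 1 is loaded into an Argonaute protein while the other is degraded. The loaded strand finds its targets mainly through its seed, bases 2 to 8. In this family the 3p arm is the loaded strand, and its known targets include the DNA methyltransferases DNMT1 and DNMT3B. In many tumours MIR148A is silenced by methylation of its promoter, and miR-148a-3p has been described as a suppressor of metastasis.

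The mature 3p sequences are shown because the 3 genes share their seed, given in capitals, and differ almost only in the middle of the molecule. They are written 5′ to 3′ as in the RefSeq table of build GRCh38.p14.
hsa-miR-148a-3p: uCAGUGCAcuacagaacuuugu
hsa-miR-148b-3p: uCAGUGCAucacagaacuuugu
hsa-miR-152-3p: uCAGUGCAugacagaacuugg

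Counted from the 5′ end, miR-148b-3p is identical to miR-148a-3p at 20 of 22 positions and differs by C9U and U10C. Over the 21 bases that both have, miR-152-3p is identical to miR-148a-3p at 18 and differs by C9U, U10G and U20G. Relative to miR-148b-3p it differs at 2 positions, C10G and U20G. The 3p strands of the family can thus be told apart by their reads only through bases 9, 10 and 20 and the 3′ end. How many mismatches the read assignment allowed is not given in the sources used here. The same table holds miR-148b-5p, the passenger strand of the second gene, whose bases 2 to 8, in capitals, are not those of the 3p strands.
hsa-miR-148b-5p: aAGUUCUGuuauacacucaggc

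The hairpin of MIR148A shows how the abundant strand lies in its precursor, with the mature miR-148a-3p in capitals.
MIR148A: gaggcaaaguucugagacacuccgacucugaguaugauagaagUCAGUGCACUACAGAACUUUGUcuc

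This hairpin of 68 bases lies on the minus strand of chromosome 7, from 25949919 to 25949986 (GRCh38), and the mature strand spans 25949922 to 25949943. It lies inside no other gene of GENCODE 29. The nearest protein-coding genes are NFE2L3, 202 kb away, and NPVF, 721 kb away. The other 2 hairpins are intronic. MIR148B lies on the plus strand of chromosome 12, from 54337216 to 54337314, within introns of all 17 transcripts of COPZ1 that span it and of 1 transcript of AC078778.2. MIR152 lies on the minus strand of chromosome 17, from 48037161 to 48037247, within introns of all 3 transcripts of COPZ2 that span it. Each is on the strand of its host gene. COPZ1 and COPZ2 are paralogs and encode the zeta subunits of the coatomer, the coat of COPI vesicles. The 3 genes are on different chromosomes and are not transcribed as 1 unit.

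The family held 19.98% of all miRNA RPM in control cells (interval 19.8 to 20.2%) and 24.8% in knockdown cells (24.7 to 24.9%), a difference of 4.82 percentage points. This share came almost entirely from 1 strand. At 195101 RPM in control cells and 243993 RPM in knockdown cells, hsa-miR-148a-3p was the most abundant miRNA of both. It made up 97.7% of the family in control cells (97.5 to 97.8%) and 98.4% in knockdown cells (98.3 to 98.5%). In other words, 1 of every 5.13 miRNA reads of the control library and 1 of every 4.10 of the knockdown library were assigned to this name. The remaining 4 members summed to 4653 RPM in control cells and 3918 RPM in knockdown cells.

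In the control library miR-148a-3p was only 1.11 times as abundant as the next miRNA, miR-100-5p (176488 RPM), which shares no seed with it. In the knockdown library the next miRNA was miR-21-5p (175898 RPM), an oncogenic miRNA, and miR-148a-3p was 1.39 times as abundant.

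The second member by level was miR-148b-3p, the guide strand of the COPZ1 intron, which ranked 19th in control cells and 22nd in knockdown cells. It was at 3997 RPM in control cells (3720 to 4294 RPM) and at 3070 RPM in knockdown cells (2917 to 3228 RPM). The passenger strand hsa-miR-148a-5p was at 339 RPM in control cells (64 reads, 261 to 432 RPM) and at 515 RPM in knockdown cells (253 reads, 453 to 582 RPM). In both cases the interval of one library lay wholly apart from that of the other, with the knockdown library lower for miR-148b-3p and higher for miR-148a-5p.

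The miR-152 entry, from the COPZ2 intron, was at 312 RPM in control cells (59 reads, 238 to 403 RPM) and at 328 RPM in knockdown cells (161 reads, 279 to 382 RPM), and its intervals overlapped. It ranked 81st in both. The passenger strand miR-148b-5p had 1 read in control cells (5.29 RPM) and 3 reads in knockdown cells (6.10 RPM). That is at or under a floor of 3 reads in each library (15.9 and 6.10 RPM), so no fold change is given for it. The plot of the levels shows the order miR-148a-3p, miR-148b-3p, miR-148a-5p, miR-152 and miR-148b-5p, which was the same in both libraries. In the control library miR-148a-5p and miR-152 did not differ beyond counting error, since their ratio was 1.08 with an interval of 0.750 to 1.57. In the knockdown library it was 1.57 (1.28 to 1.93).

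**Figure D1:**
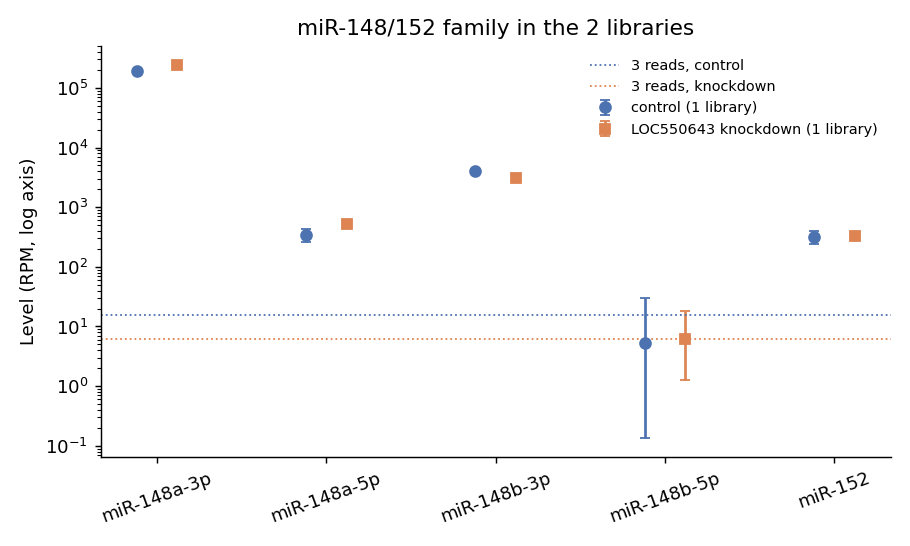
Level of each family member in RPM (log axis) in the control (circles) and knockdown (squares) samples, 1 library each, with 95% counting intervals; dotted lines mark 3 reads in each library. miR-148a-3p stands at 195101 and 243993 RPM, far above miR-148b-3p at 3997 and 3070 RPM, and miR-148b-5p lies at or under the 3-read lines.

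The fold change of a member is its RPM + 1 in knockdown cells divided by its RPM + 1 in control cells, written as log2, with both libraries set to the same total. The log2 fold change was 0.32 for miR-148a-3p (interval 0.31 to 0.34), which is 1.25-fold. For its passenger strand miR-148a-5p it was 0.60 (0.20 to 1.02), or 1.52-fold. For miR-148b-3p it was -0.38 (-0.51 to -0.25), or 0.768-fold. For miR-152 it was 0.07 with an interval of -0.37 to 0.53, and a difference was not detectable at this depth. The 2 guide strands that share 20 of 22 bases, miR-148a-3p and miR-148b-3p, thus had opposite signs.

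None of the 4 members given a fold change was beyond 2-fold in either direction, the threshold the study applies to its lncRNA microarray. Of all 425 miRNAs, 17.9% lay beyond 2-fold on the higher side and 27.3% on the lower side. These shares include miRNAs at or under 3 reads in both libraries. There the unequal depth matters, since 1 read in each library (5.29 and 2.03 RPM) already counts as beyond 2-fold lower. For the 124 miRNAs averaging 100 RPM or more, which hold 4 of the 5 members, the shares were 2.42% and 5.65%, and the count of 0 of 4 is read against these low shares as no result about the members.

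Within their abundance class, miR-148a-3p and miR-148b-3p sat towards opposite ends. The class from 1000 RPM has no upper limit, and miR-148a-3p is its most abundant miRNA. The 51 miRNAs averaging 1000 RPM or more had log2 fold changes centred on -0.09 (median; quartiles -0.30 and 0.09). Of these, 9 had a higher log2 fold change than miR-148a-3p and 41 a lower one, while 41 had a higher one than miR-148b-3p and 9 a lower one. The 73 miRNAs from 100 to 1000 RPM had a median of -0.12 (quartiles -0.55 and 0.28), and 6 of them had a higher log2 fold change than miR-148a-5p. With 30 higher and 42 lower, miR-152 lay near the middle. The 3 miRNAs of at least 1000 RPM with the fold change nearest to that of miR-148a-3p were let-7b-5p (log2 0.28), miR-221-5p (0.38) and miR-151a-3p (0.42). This nearness is over 2 libraries only, that is over 1 difference, and none of the 3 has the family's seed.

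**Figure D2:**
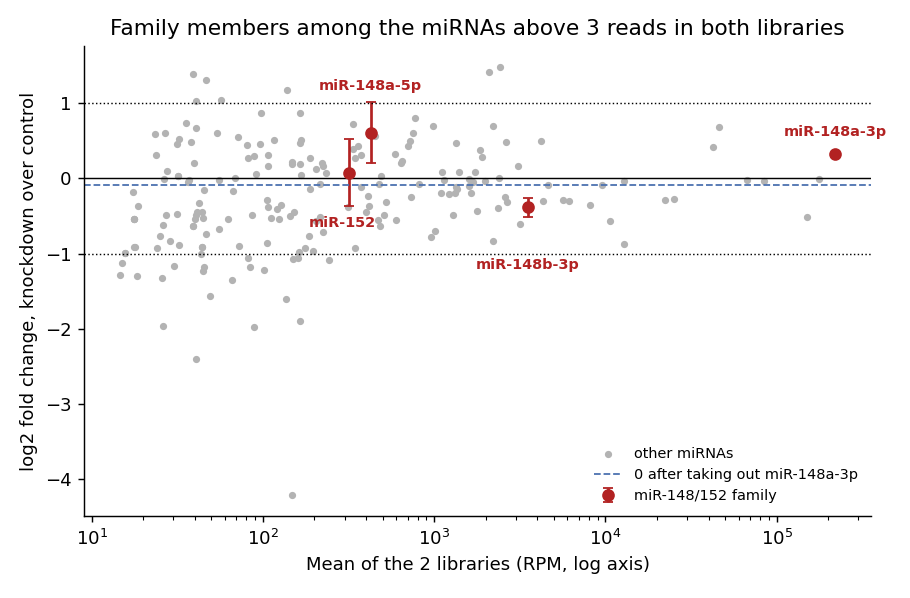
log2 fold change of knockdown over control against the mean of both libraries (RPM, log axis) for the 201 miRNAs above 3 reads in both libraries, 1 library per condition; family members are in red with 95% counting intervals, dotted lines mark 2-fold, and the dashed line is where 0 lies once miR-148a-3p is taken out of both totals. miR-148a-3p is the point farthest to the right at 0.32, miR-148a-5p lies at 0.60, miR-152 at 0.07 and miR-148b-3p at -0.38.

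A ratio of 2 miRNAs within a library does not depend on the library total, so it was used to compare the members without any scaling. The ratio of miR-148a-3p to miR-148b-3p was 48.8 in control cells (45.4 to 52.5) and 79.5 in knockdown cells (75.5 to 83.7), 1.63 times as high (1.49 to 1.78). This gap between the guide strands is the same under any scaling, which multiplies both by 1 factor. In other terms, miR-148b-3p amounted to 2.05% of miR-148a-3p in control cells and 1.26% in knockdown cells.

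The ratio of miR-148a-3p to miR-152 was 625 in control cells (484 to 821) and 745 in knockdown cells (638 to 875), a change of 1.19 times whose interval, 0.884 to 1.61, includes 1. The ratio of miR-148b-3p to miR-152 was 12.8 and 9.37, a change of 0.732 times (0.536 to 0.999) with 1 just outside the interval. Among the most abundant miRNAs outside the family, the ratio of miR-148a-3p to miR-21-5p was 1.11 in control cells and 1.39 in knockdown cells (1.25 times as high, 1.23 to 1.27). Its ratio to let-7i-5p, a tumour-suppressive let-7 member, was 1.28 times as high (1.25 to 1.30), and that to miR-30a-5p was 1.27 times as high (1.24 to 1.30). Against miR-100-5p the ratio was 1.78 times as high (1.75 to 1.82), as miR-100-5p was itself lower in knockdown cells.

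Both arms of the MIR148A hairpin come from 1 precursor, and their ratio describes how unevenly their reads were counted. Whether the library preparation captured different sequences equally was not tested, for the arms or for the ratios between miRNAs. For each read of miR-148a-5p there were 576 reads of miR-148a-3p in control cells (451 to 748) and 474 in knockdown cells (419 to 538). The 5p arm made up 0.173% of the hairpin in control cells (64 of 36945 reads, 0.133 to 0.221%) and 0.211% in knockdown cells (253 of 120186 reads, 0.185 to 0.238%). The difference was 0.037 percentage points, and the intervals overlapped. The 3p-to-5p ratio of the knockdown library was 0.823 times that of the control library, with an interval of 0.625 to 1.08. Both arms were higher in knockdown cells, and no change in their balance was detectable at this depth.

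The MIR148B hairpin was about as one-sided, with a 5p share of 0.132% in control cells (1 of 757 reads, interval 0.00334 to 0.734%) and 0.198% in knockdown cells (3 of 1512 reads, 0.0409 to 0.579%). Across the series, 60 hairpins had both arms listed and a summed mean of at least 100 RPM, and 7 of them had a smaller minor-arm share than MIR148A. Hairpins with only 1 arm listed, such as that of let-7i-5p (84599 RPM in control cells), are not in this count. Besides MIR148B, the hairpins with the nearest 5p share were those of miR-378a (0.335% and 0.0454%) and miR-582 (0% of 113 reads and 0.480% of 417 reads). In the 27 hairpins of this set with more than 3 reads of each arm in both libraries, the ratio of the arms changed by a median of 0.52 on the log2 scale in either direction. For MIR148A it changed by 0.28, and 20 of the 27 changed by more. Counting error differs across this set, as miR-28 had 4 and 7 reads of its 5p arm and MIR148A had 64 and 253. The order is therefore not read as a steadier balance of MIR148A.

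Because RPM values share 1 total, a miRNA that fills a large share of a library moves all others. The RPM of miR-148a-3p was 48892 higher in knockdown cells. Over all miRNAs, the 180 with a higher value gained 96637 RPM in sum, which the other 245 lost, and miR-148a-3p accounted for 50.6% of that gain. The next gains were those of miR-143-3p (22.1%) and miR-151a-3p (12.7%). On the other side, the difference of miR-100-5p was -52720 RPM and accounted for 54.6% of the loss. The exchange of RPM between the libraries was thus made up mainly of 1 higher and 1 lower miRNA, as the bar chart of the largest differences shows.

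**Figure D3:**
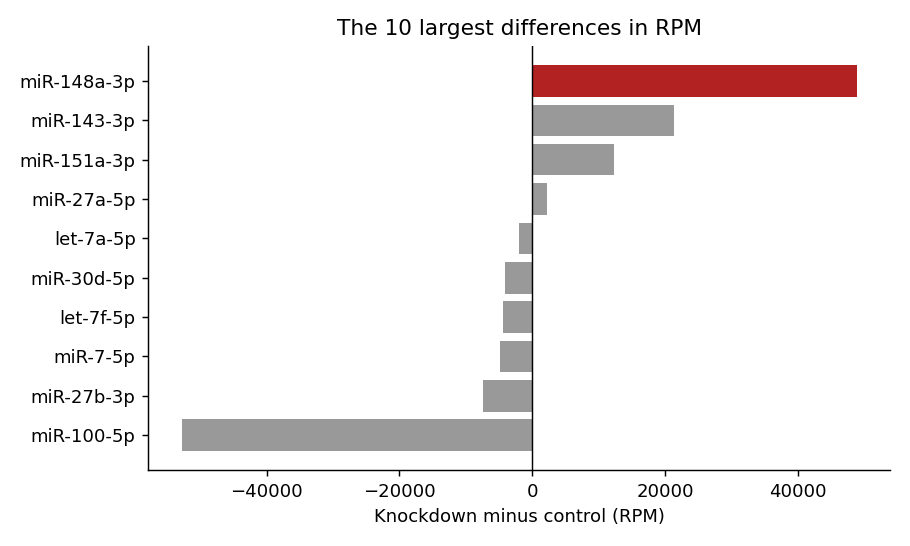
Difference of knockdown minus control in RPM for the 10 miRNAs with the largest absolute differences, 1 library per condition. The bar of miR-148a-3p (red) reaches 48892 RPM and that of miR-100-5p reaches -52720 RPM, and the next longest, that of miR-143-3p, reaches 21332 RPM.

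Without miR-148a-3p, 80.5% of the RPM in control cells and 75.6% in knockdown cells were left for the other 424 miRNAs. A miRNA with an equal place among those others therefore had an RPM 6.07% lower in knockdown cells. Taking miR-148a-3p out of both totals multiplies the knockdown-to-control ratio of RPM of the other miRNAs by 1.06, or 0.09 on the log2 scale. With 1 RPM added to each value, the rise is not equal for miRNAs of very low RPM. The shift is arithmetic and its size is small beside a 2-fold threshold, but it is as large as the median log2 fold change of abundant miRNAs. Over the 123 other miRNAs averaging 100 RPM or more, the median log2 fold change was -0.09 with miR-148a-3p in the total and -0.0041 without it. The number of these with a higher value in knockdown cells was 48 before and 60 after. Over all 424, it was 179 before and 196 after.

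The sign turned for 17 miRNAs, 12 of which averaged 100 RPM or more. The most abundant were miR-21-5p (log2 fold change -0.0018 before and 0.09 after), let-7i-5p (-0.03 and 0.06), miR-30a-5p (-0.02 and 0.07), miR-10a-5p (-0.04 and 0.05) and miR-378a-3p (-0.08 and 0.01). Under the 2-fold rule the counts moved little, from 76 higher and 116 lower to 78 higher and 111 lower. The 5 that were no longer counted as lower were miR-93-5p, miR-30b-5p, miR-17-5p, miR-1180 and miR-340-5p, with log2 fold changes between -1.08 and -1.01 before. The 2 newly counted as higher, miR-199b-5p (log2 fold change 0.88 before and 1.00 after) and miR-548d-5p (0.86 and 1.06), were under 3 reads in both libraries. Within the family, the log2 fold change without miR-148a-3p in the total was 0.69 for miR-148a-5p, -0.29 for miR-148b-3p and 0.16 for miR-152.

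The shift of miR-148a-3p was offset by that of miR-100-5p. With both taken out, the shift of the remaining log2 ratios was -0.0088, and without the 5 miRNAs that led the control library it was -0.032. The tables hold no spiked-in standard, so a higher amount of miR-148a-3p and a lower amount of the other miRNAs cannot be told apart from RPM. Under the 5 scalings plotted, the log2 fold change of miR-148a-3p ranged from 0.29 to 0.61, that of miR-148a-5p from 0.57 to 0.88 and that of miR-152 from 0.04 to 0.35. That of miR-148b-3p ranged from -0.41 to -0.10. No member changed sign, but no counting interval was computed for the other scalings. Under the total of all miRNAs the interval of miR-152, -0.37 to 0.53, already includes 0. That of miR-148b-3p was -0.51 to -0.25, and its value of -0.10 is nearer to 0 than this interval.

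**Figure D4:**
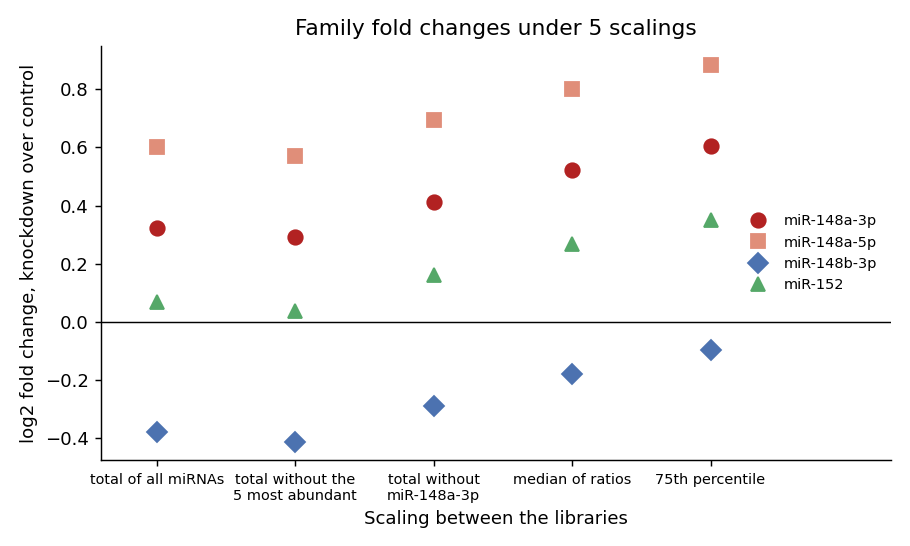
log2 fold change of knockdown over control (vertical axis) for the 4 members above 3 reads in both libraries under 5 ways of scaling the libraries to each other (horizontal axis), 1 library per condition. The points of miR-148b-3p lie below 0 in all 5, from -0.41 to -0.10, and those of miR-148a-3p, miR-148a-5p and miR-152 lie above 0. Counting intervals are not drawn.

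Of the 425 listed names, 350 matched a mature sequence in the RefSeq table, and among these only miR-148a-3p and miR-148b-3p have CAGUGCA at bases 2 to 8. The miR-152 entry is not among the 350 because its name lacks the arm. Listed names without a matched sequence were not searched. Among the 350, the same 7 bases occur 1 base earlier, at bases 1 to 7, in miR-130b-3p and miR-301a-3p. Their seeds are therefore shifted by 1. These were listed at 10.2 RPM (5 reads) and 2.03 RPM (1 read) in knockdown cells and in control cells not at all. A relative of miR-130b-3p by name, miR-130a-3p, was not among the names found by this search. Since only matched names were searched, its absence does not show that it lacks these bases. It was listed at 10.6 RPM (2 reads) in control cells and 22.4 RPM (11 reads) in knockdown cells. Among the matched names, nearly all reads with this seed at bases 2 to 8 were those of miR-148a-3p.

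The complements of the shared 3p seed and of bases 1 to 8 of miR-148b-5p were also looked for in the LOC550643 sequences determined by the study, isoforms V1 (718 bases), V2 (581) and V3 (476), on the RNA strand only. The 5p strands of MIR148A and MIR152 were not searched. For the shared 3p seed the 7-base motif TGCACTG pairs with bases 2 to 8, and 3 motifs of 6 bases overlap it. None of these 4 occurred in any isoform. Their background was counted in the first 718 bases of the 116724 GENCODE 29 transcripts at least that long. There TGCACTG was found in 6.12% of transcripts, the motif GCACTG (bases 2 to 7) in 21.9%, the motif CACTGA (bases 1 to 6) in 21.4% and the motif TGCACT (bases 3 to 8) in 16.0%. For miR-148b-5p the motif CAGAACT (bases 2 to 8, in 7.70% of transcripts), the motif AGAACT (bases 2 to 7, in 23.6%) and the motif CAGAAC (bases 3 to 8, in 23.9%) also occurred in no isoform. The motif GAACTT, which pairs with bases 1 to 6 of miR-148b-5p and is found in 17.9% of transcripts, occurred once in every isoform, in V1 from base 582 to base 587. A match or its absence says only which letters are in these sequences.

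DNMT transcripts are also known targets of the miR-29 family, whose 3 guide strands formed a list for comparison. With miR-29c-3p under 3 reads in each library and given no fold change, neither of the other two was beyond 2-fold, against 2.42% of miRNAs averaging 100 RPM or more on the higher side and 5.65% on the lower side. The value of miR-29a-3p was 1410 RPM in control cells and 1239 RPM in knockdown cells (log2 fold change -0.19, interval -0.40 to 0.02). That of miR-29b-3p was 354 and 273 RPM (-0.38, -0.81 to 0.07). Both intervals include 0. In sum the miR-29 strands had 1767 RPM in control cells and 1516 RPM in knockdown cells, against 199754 and 247911 RPM for the miR-148 and miR-152 family.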

How the data were processed

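The authors extracted total RNA with TRIZOL, prepared small RNA libraries and named the mature miRNA of each read by software of their own. The sample labels instead describe a DNA library protocol and another sequencer, and the submitters' processing notes name FastQC, cutadapt and hg38. The miRNA release, the mismatches allowed and any low-value filter are not given in the sources used here. The deposited values are RPM per library and sum to 999996 and 999845.

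From these tables both libraries were set to a total of 1000000, absent miRNAs received a value of 0, and log2 fold changes used a pseudocount of 1 RPM. The RPM worth 1 read was fitted to the low values (up to 20 reads). Of these 92.9% of 253 and 91.5% of 224 were whole reads within 0.1 read, so no count test was run. The estimated reads, rounded, gave exact 95% Clopper-Pearson intervals of shares and ratios, and Woolf intervals for the change of a ratio between libraries. PCR duplicates are not accounted for. A value of 3 reads or fewer counted as the floor.

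Members, lists and comparisons were chosen with earlier results of these data known. Named miRNAs were the members, the 5 most abundant, the 3 nearest in fold change at a mean of at least 1000 RPM, up to 5 of each kind that crossed a threshold or sign without miR-148a-3p, hairpins with the nearest or most changed 5p share, the miR-29 guide strands and marker miRNAs of the cell line. Outside this rule, miR-130a-3p, miR-130b-3p, miR-301a-3p and miR-143-3p were named after their values were seen. Alternatives covered scaling, pseudocount, low values and fold threshold. The procedure was tested on simulated data. Sequences are from RefSeq (GRCh38.p14), gene positions from GENCODE 29, and the tools were Python 3.11.15, numpy 2.4.6, pandas 2.3.3, scipy 1.17.1 and matplotlib 3.10.9.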

Additional observations from a re-analysis of the deposited data

How the results depend on the processing

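No paired analysis was possible because only 1 library was made per condition. The log2 fold change of miR-148a-3p (0.32) was 0.52 with median-of-ratios size factors, 0.61 with scaling to the 75th percentile, 0.41 with the total without miR-148a-3p and 0.29 with the total without the 5 most abundant miRNAs. For miR-148a-5p every alternative stayed within its counting interval. The values of miR-148b-3p and miR-152 under these alternatives were added after the data were seen, and none changed sign, although miR-148b-3p (-0.38) was at -0.18 with the median of ratios and -0.10 with the 75th percentile. Counting intervals were not computed anew for these alternatives. Without miR-100-5p in the total, the family share was 24.3% in control cells and 28.3% in knockdown cells. The shift of all other log2 ratios (0.09) turned to -0.032 with the 5 most abundant taken out and to -0.0088 with miR-148a-3p and miR-100-5p taken out, the latter chosen after the data were seen, since miR-100-5p was lower by more RPM than miR-148a-3p was higher. The counts beyond 2-fold without miR-148a-3p, 78 higher and 111 lower, were 3 and 4 for miRNAs averaging 100 RPM or more, 34 and 46 for those reaching 10 RPM in 1 library or both, 29 and 61 above 0 in both libraries and 28 and 22 with a pseudocount of 10 RPM. They came to 83 and 90 under the median of ratios, then 111 and 144 at 1.5-fold. The depth limits miR-152, miR-148b-5p and the arm ratio, and 1 library per condition limits every comparison.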

Other observations

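The arm balance of MIR148A can be set beside the hairpins whose 5p share differed most between the libraries among the 60 with a summed mean of at least 100 RPM over both arms. Hairpins under that level, some with larger differences, are left out. The 3 were the hairpins of miR-331 (3.70% of 27 reads in control cells, interval 0.0937 to 19.0%, and 27.5% of 51 reads in knockdown cells, 15.9 to 41.7%), miR-424 (38.1% of 21 reads and 15.1% of 73 reads) and miR-27a (61.7% of 392 reads, 56.7 to 66.6%, and 84.2% of 2084 reads, 82.5 to 85.7%). For miR-331 and miR-424 the difference rests on few reads and the intervals overlapped, while for miR-27a they did not.

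The estimated reads of miR-148a-5p (64.0 and 253), miR-152 (59.0 and 161) and miR-148b-5p (1 and 3) were whole within 0.1 read in both libraries. That of miR-148b-3p was 755.5 in control cells. For miR-148a-3p the estimates were 36880.7 and 119932.7, not whole within 0.1 read in either library. At such counts a small error in the fitted RPM per read can exceed 0.1 read, so the check cannot be read there. Some low values were not whole reads, such as 0.333 reads of miR-199b-5p and 0.501 reads of miR-29c-3p in control cells. Whether reads that fit more than 1 miRNA were divided between them is not given in the sources used here and was not tested.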
